A study of Rattus norvegicus with 8 samples.

Results

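Neurotrophic factors are secreted proteins that keep neurons alive and tune their synapses, and 8 genes of this system are described here in the dorsal spinal cord of nerve-injured rats. They are the ligands Bdnf, Ntf3 and Gdnf and the receptors Ntrk2, Ntrk3, Ngfr, Gfra1 and Ret. The genes were chosen by name, and each of the 8 was found in the platform annotation as the single symbol of 1 probe set, among 14506 genes measured. None of them passed the test for a change with HDAC inhibitor (HDACI) treatment, and on every one the treated and control arrays overlapped. Of the 5 receptor genes, Ntrk2 and Ntrk3 held nearly the same signal on all arrays. Ngfr varied widely between animals within both groups, and Gfra1 and Ret varied mainly among the vehicle arrays.

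Neurotrophins (brain-derived neurotrophic factor from Bdnf, neurotrophin 3 from Ntf3) bind tyrosine kinase receptors of the Trk family, TrkB from Ntrk2 and TrkC from Ntrk3, and also the p75 receptor from Ngfr, which is a member of the tumor necrosis factor receptor family. Glial cell line-derived neurotrophic factor (Gdnf) works differently: it binds the membrane-anchored coreceptor encoded by Gfra1, and the pair then activates the tyrosine kinase RET. In the dorsal horn, brain-derived neurotrophic factor released from primary afferents and microglia is known to raise the excitability of pain circuits after nerve injury, whereas intrathecal Gdnf is known to relieve neuropathic pain.

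All 8 arrays came from rats with an L5 spinal nerve transection, adult male Wistar animals per the study's methods, so no uninjured cord was compared. In 4 rats the class I HDACI MS-275 was infused intrathecally through an osmotic pump at 30 nmol per day, and 4 received the vehicle, a dimethyl sulfoxide solution in saline. The titles and source names of the samples set the groups, since the treatment text of the labels names the drug for all 8. The study placed pumps before the injury in its pretreatment experiments, and its array methods do not restate the timing. Ipsilateral dorsal cord was taken at day 14, which the study's methods count from the injury. Its RNA was hybridized to Affymetrix Rat Gene 1.0 ST arrays, 1 per rat. The values are log2 RMA signals, an arbitrary scale on which 1 unit is a doubling. Because bulk cord was used, fewer cells of a type and less RNA per cell cannot be told apart.

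The arrays were not alike in their cell type markers. Neuronal markers lay between 11.71 and 11.96 on all arrays (mean log2 signal of 7 genes). Those of dorsal horn neurons lay between 10.1 and 10.5 (5 of 6 listed), and the dorsal horn markers Penk (11.93 to 12.32) and Lmx1b (9.01 to 9.48) had a signal on every array. In contrast, the mean of the motor neuron markers (3 of 5 listed were measured) ran from 7.39 to 8.23 on HDACI arrays and from 7.83 to 9.27 on vehicle arrays, with vehicle replicates 2 (9.27) and 1 (8.62) highest. The mean of the Schwann cell markers (5 of 6 listed were measured) ran from 9.35 to 10.8 with HDACI and from 9.28 to 10.7 with vehicle. It was highest in HDACI replicate 2 (10.8) and vehicle replicates 1 (10.7) and 2 (10.6). The peripheral myelin lipid carrier gene Pmp2 alone spanned 7.98 to 12.15. The mean of the 7 leptomeningeal fibroblast markers was highest in the same 3 arrays, at 10.1, 9.60 and 9.75, against 8.99 to 9.42 on the others. Singly, only Dcn and Lum were highest in these 3 arrays. Col1a1, Col1a2, Ogn, Pdgfra and Slc22a6 were not, and Slc22a6 was highest in vehicle replicate 4 (7.70). Where leaving out these arrays turned the direction for one of the 8 genes or changed the call of a named pathway gene, the value without them is given beside the result. Calls of pathway genes that are not named also changed, and these enter only the counts in the last section.

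The ligand Bdnf had log2 signals of 7.04, 6.89, 7.02 and 6.98 in HDACI replicates 1 to 4 and of 6.89, 6.96, 6.98 and 6.99 in vehicle replicates 1 to 4. The groups overlapped almost entirely. The means were 6.98 ± 0.07 (SD, n = 4) and 6.96 ± 0.05 (SD, n = 4), a log2 fold change of 0.03 with a standard error (SE) of 0.05 and a 95% confidence interval (CI) from -0.08 to 0.13 (adjusted p = 0.927 from limma, exact two-sided permutation p = 0.514). The interval therefore runs from 0.947-fold to 1.10-fold. The log2 fold change of Bdnf was -0.00497 without vehicle replicates 1 and 2. Rat Bdnf is transcribed from several promoters onto a shared coding exon, and the array gives 1 value for the gene, so a shift from one promoter to another was not measured.

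The RefSeq table holds 6 start windows for Bdnf, each reaching from 250 bases before to 50 bases after a transcript start. The octamer TCACGTCA, the form of the cyclic AMP response element known from the activity-dependent promoter of this gene, was searched on both strands and stood in 1 of the 6, with its first base at position -38 from the start. Of all 33469 windows in the table, 134 held it on either strand. That window is shown because it is the one of the 6 that holds the element and because the array cannot tell it from the others. It lies at chr3:116637608-116637907 on the plus strand of GRCr8 (sequence from RefSeq), and the capitals mark the octamer. A match is a description of letters and not a measured binding site.
Bdnf: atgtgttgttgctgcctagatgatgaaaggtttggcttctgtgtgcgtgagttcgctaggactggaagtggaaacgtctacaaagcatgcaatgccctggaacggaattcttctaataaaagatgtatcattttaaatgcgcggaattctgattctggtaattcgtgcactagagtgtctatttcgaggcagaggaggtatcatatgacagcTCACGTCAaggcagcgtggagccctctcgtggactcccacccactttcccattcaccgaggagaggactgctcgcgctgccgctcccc

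Neurotrophin 3 (Ntf3) supports proprioceptive afferents. Its log2 signals were 6.01, 6.06, 6.22 and 6.04 with HDACI and 6.01, 6.08, 6.25 and 6.15 with vehicle, in replicate order. Both groups covered the same range, and the log2 fold change was -0.04 (SE 0.06, 95% CI -0.19 to 0.11). Gdnf read 7.28, 7.29, 7.40 and 7.29 with HDACI and 7.24, 7.19, 7.37 and 7.57 with vehicle. Its highest and lowest values were both vehicle arrays, and the log2 fold change was -0.03 (SE 0.08, 95% CI -0.21 to 0.15). Without vehicle replicate 4 the Gdnf difference turned to 0.05, and without vehicle replicate 3 that of Ntf3 turned to 0.0028, so neither has a settled direction. Without vehicle replicates 1 and 2 the difference was -0.15 for Gdnf (unadjusted p = 0.0625 from limma) and -0.12 for Ntf3.

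The ligand signals were low. The deposited values carry no detection call, so the 1105 olfactory receptor genes on the array, which the cord is not known to use, served as a rough guide to background, with the limit that probes of different genes differ in brightness. Of these, 19.7% had a mean signal at or above that of Ntf3, 4.43% at or above that of Bdnf and 1.72% at or above that of Gdnf. By this guide the signal of Ntf3 cannot be set apart from background, and RMA is known to compress differences at low signal. With a filter at the 25th percentile of mean signal, 6 of the 8 genes stayed in and Bdnf and Ntf3 did not.

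**Figure D1:**
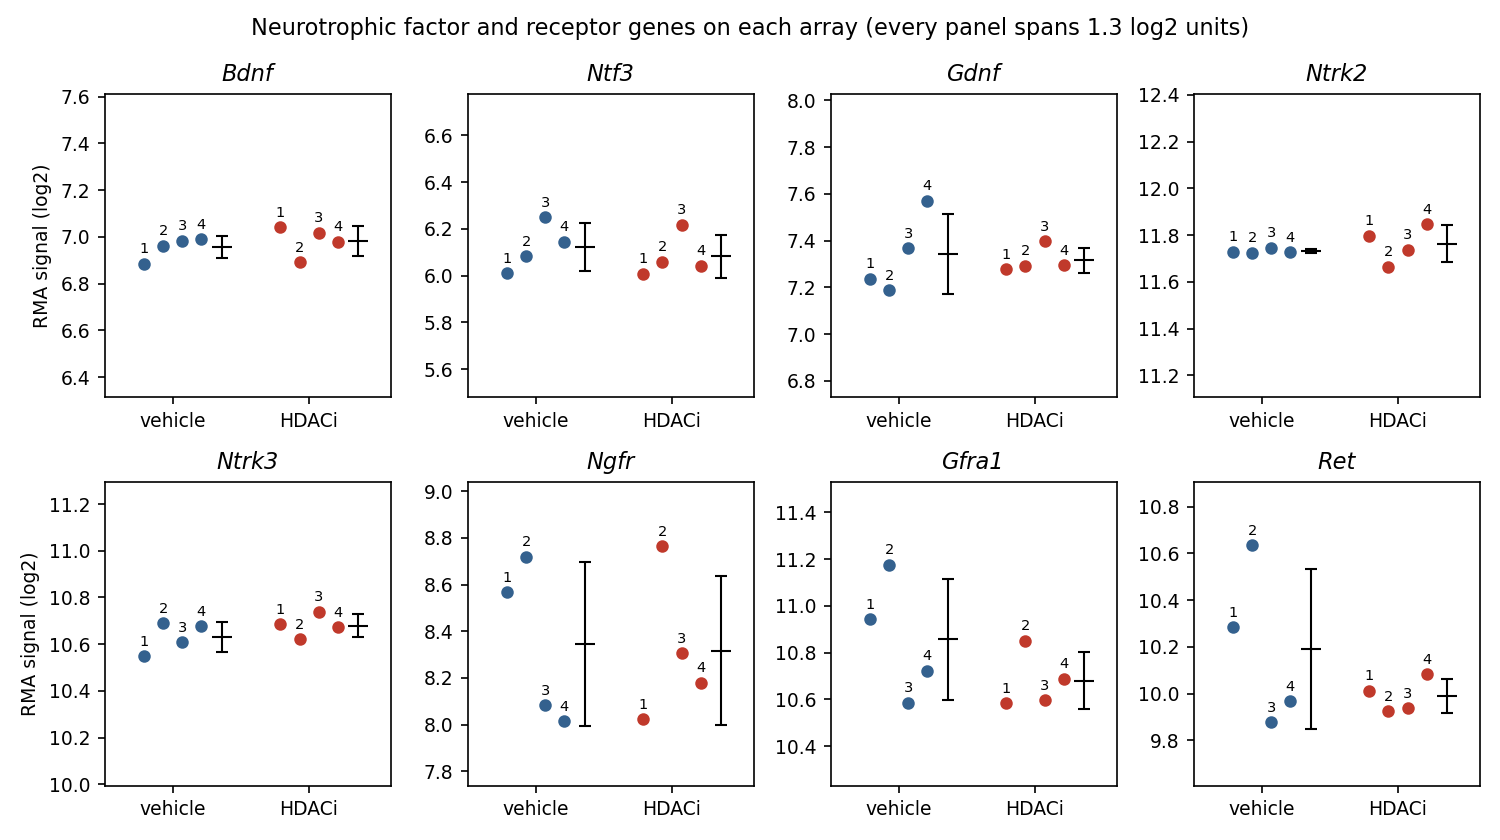
Log2 RMA signal of the 8 genes on each array, with vehicle arrays in blue, HDACI arrays in red, the replicate number above each point, and the group mean ± SD (n = 4) as a black bar; every panel spans the same number of log2 units. Vehicle and HDACI arrays overlap for every gene, the points of Bdnf, Ntrk2 and Ntrk3 lie within 0.19 of each other, and Ngfr, Gfra1 and Ret spread over 0.59 to 0.76.

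Among the receptors, Ntrk2 encodes TrkB in a full-length kinase form in neurons and a truncated form, abundant in astrocytes, that lacks the kinase. Its log2 signals were 11.80, 11.66, 11.74 and 11.85 with HDACI and 11.73, 11.72, 11.75 and 11.73 with vehicle. The 4 vehicle values fell inside the HDACI range, and the log2 fold change was 0.03 (SE 0.05, 95% CI -0.07 to 0.14; adjusted p = 0.909 from limma). As 1 value was given for the gene, the full-length and truncated forms were not separated. Ntrk3, the receptor for neurotrophin 3, read 10.69, 10.62, 10.74 and 10.67 with HDACI and 10.55, 10.69, 10.61 and 10.68 with vehicle. HDACI replicate 3 was highest and vehicle replicate 1 lowest, with the others intermingled, and the log2 fold change was 0.05 (SE 0.05, 95% CI -0.06 to 0.15; adjusted p = 0.842 from limma). For Ntrk2 and Ntrk3 the intervals span 0.950-fold to 1.10-fold and 0.961-fold to 1.11-fold.

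Ngfr, the p75 receptor, is found in Schwann cells, in some sensory and cholinergic neurons and in cells around vessels. It read 8.02, 8.76, 8.30 and 8.18 with HDACI and 8.57, 8.72, 8.08 and 8.01 with vehicle. Each group held both high and low arrays, and the pooled within-group SD of 0.33 on the log2 scale was exceeded by only 1.34% of the 14506 genes. The log2 fold change was -0.03 with an SE of 0.19, and its 95% CI, from -0.46 to 0.40, spans 0.726-fold to 1.32-fold (adjusted p = 0.984 from limma, exact permutation p = 0.943). The 3 arrays with the highest Ngfr were HDACI replicate 2, vehicle replicate 2 and vehicle replicate 1, which were also the 3 with the highest Schwann cell and leptomeningeal marker means. Their Pmp2 signals were 12.15, 11.05 and 11.92, and those of Prx, a myelin protein of Schwann cells, 9.88, 9.73 and 9.40. The part of these cells in the Ngfr signal was not tested. Leaving out these 3 arrays gave a log2 fold change of 0.12 for Ngfr (adjusted p = 0.628 from limma), and leaving out the 2 vehicle arrays alone gave 0.27 (adjusted p = 0.569 from limma). The arrays were picked after the markers were seen. Leaving out the 2 vehicle arrays with the highest Ngfr could only raise its log2 fold change. The value was also above 0 without HDACI replicate 1 or 4 or vehicle replicate 1 or 2, at most 0.10. Its direction is thus not settled.

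The GDNF receptor genes had the largest differences of the 8, both lower with HDACI and neither past the test. Gfra1 read 10.58, 10.85, 10.60 and 10.69 with HDACI and 10.94, 11.18, 10.58 and 10.72 with vehicle. Vehicle replicates 2 and 1 were highest, followed by HDACI replicate 2, while vehicle replicate 3 matched the lowest HDACI array. The arrays at the top were also those highest for Ngfr and for the Schwann cell and leptomeningeal marker means. Across arrays the Pearson correlation of Gfra1 was 0.807 with Ngfr and 0.878 with Ret. The part of Schwann or leptomeningeal cells in the Gfra1 signal was not tested. Group means were 10.7 ± 0.12 (SD, n = 4) and 10.9 ± 0.26 (SD, n = 4), a log2 fold change of -0.18 (SE 0.12, 95% CI -0.45 to 0.09; adjusted p = 0.750 from limma, exact permutation p = 0.257). Ret read 10.01, 9.92, 9.94 and 10.08 with HDACI and 10.28, 10.63, 9.88 and 9.97 with vehicle. Here too vehicle replicates 2 and 1 stood above every HDACI array, and the other two vehicle arrays lay among or below them. Group means of Ret were 9.99 ± 0.07 (SD, n = 4) with HDACI and 10.19 ± 0.34 (SD, n = 4) with vehicle, so its spread lay in the vehicle group. The Ret log2 fold change was -0.20 (SE 0.14, 95% CI -0.53 to 0.12, adjusted p = 0.762 from limma, exact permutation p = 0.371).

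RET and its coreceptor are known to be strongly expressed by spinal motor neurons, which lie in the ventral horn and were not the target of the dissection. Of the 3 motor neuron markers measured, Slc18a3 and Slc5a7 stood highest in the same vehicle replicates, and Isl1 did not. Slc18a3, which loads acetylcholine into vesicles, read 9.24 and 10.09 in vehicle replicates 1 and 2, 7.41 and 8.28 in vehicle replicates 3 and 4, and 6.98 to 8.38 with HDACI. Slc5a7, the choline transporter, read 9.75 and 10.49 in vehicle replicates 1 and 2 and 8.54 to 9.25 on the other 6 arrays. Isl1, a transcription factor of motor neurons and of some other neurons, was highest in vehicle replicate 2 (7.22) but read 6.88 in vehicle replicate 1, below HDACI replicate 3 (7.08) and vehicle replicates 3 (7.04) and 4 (7.03). Prph, an intermediate filament of neurons with peripheral axons, which was listed for sensory ganglia, read 10.48 and 11.20 in these replicates and 8.41 to 9.83 elsewhere. Scn10a, a sodium channel of sensory ganglion neurons, stayed between 6.04 and 6.41 on all arrays. On the other 6 arrays Ret lay between 9.88 and 10.08 and Gfra1 between 10.58 and 10.85. The Ret range is too narrow to show whether it followed the mean of the motor neuron markers. HDACI replicate 4 had the lowest marker mean (7.39) and a Ret signal of 10.08, and HDACI replicate 3 had 8.23 and 9.94. What motor neurons added to the Gfra1 and Ret signals was not tested. Without vehicle replicates 1 and 2, the log2 fold change was 0.03 for Gfra1 (SE 0.09, adjusted p = 0.914 from limma) and 0.07 for Ret (SE 0.06, adjusted p = 0.686 from limma), both turned in sign. Without HDACI replicate 2 as well, Gfra1 was at -0.03 and Ret at 0.09. Vehicle replicates 1 and 2 were picked after the markers were seen, and they held the highest Gfra1 and Ret signals. Leaving them out could therefore only raise both differences, so the turn in sign says nothing about motor neurons. Single vehicle arrays moved both values in either direction. Without vehicle replicate 2 the log2 fold change was -0.07 for Gfra1 and -0.05 for Ret, and without vehicle replicate 3 it was -0.27 for Gfra1 (unadjusted p = 0.0383 from limma) and -0.31 for Ret (unadjusted p = 0.0511 from limma).

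**Figure D2:**
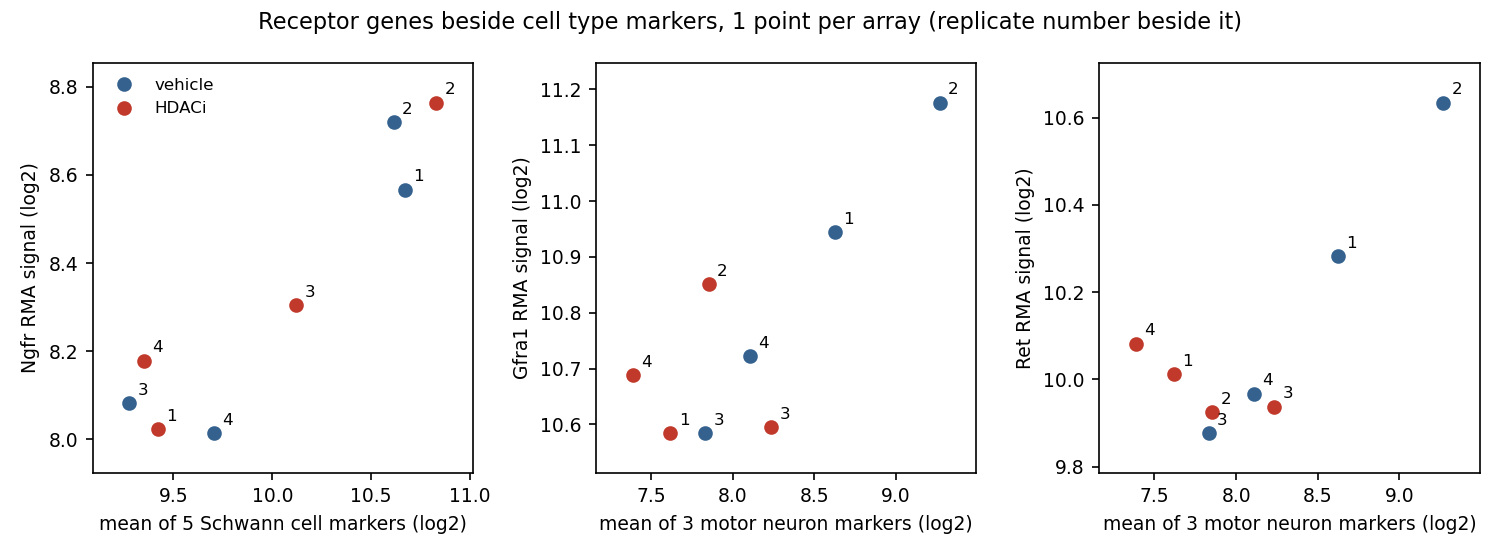
Log2 signal of Ngfr against the mean of the Schwann cell markers (left), and of Gfra1 (middle) and Ret (right) against the mean of the motor neuron markers, with 1 point per array, vehicle in blue, HDACI in red and the replicate number beside it. Ngfr is highest in HDACI replicate 2 and vehicle replicates 1 and 2, where Schwann cell markers read 10.6 to 10.8, and both GDNF receptor genes are highest in vehicle replicates 2 and 1, where motor neuron markers read 9.27 and 8.62. On the other arrays Ret reads only 9.88 to 10.08, and the motor neuron markers are lowest in HDACI replicate 4 (7.39), where Ret reads 10.08.

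Because Gfra1 and Ret were both highest on the same 2 vehicle arrays, their start windows are shown side by side, from RefSeq on GRCr8. Gfra1 lies at chr1:267555762-267556061 and Ret at chr4:153040507-153040806, both on the minus strand and printed in the direction of transcription. Capitals mark the GC box GGGCGG on either strand. The Gfra1 window holds 2 such boxes and is 63.0% G and C. The Ret window holds 0 and is 74.0% G and C, which says only that these letters are not in it. Of all windows 33.1% hold a GC box, and the median window is 51.7% G and C.
Gfra1: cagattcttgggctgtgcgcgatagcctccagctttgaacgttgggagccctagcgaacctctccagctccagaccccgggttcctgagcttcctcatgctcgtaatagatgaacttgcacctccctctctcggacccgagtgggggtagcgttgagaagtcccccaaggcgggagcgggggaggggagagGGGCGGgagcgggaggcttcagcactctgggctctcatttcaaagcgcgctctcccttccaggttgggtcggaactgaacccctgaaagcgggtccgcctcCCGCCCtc
Ret: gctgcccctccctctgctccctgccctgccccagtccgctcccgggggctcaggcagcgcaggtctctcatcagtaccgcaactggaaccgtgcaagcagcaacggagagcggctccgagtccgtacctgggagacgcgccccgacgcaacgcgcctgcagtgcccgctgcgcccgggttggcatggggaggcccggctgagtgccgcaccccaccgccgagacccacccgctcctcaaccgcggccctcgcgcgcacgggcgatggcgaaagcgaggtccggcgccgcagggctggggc

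As a group, 3 of the 8 genes lay above 0 and 5 below, from -0.20 (Ret) to 0.05 (Ntrk3), with a median log2 fold change of -0.03. Over all 14506 genes the median was -0.01, with 6106 above 0 and 8400 below. At an unadjusted p under 0.01, the nominal threshold of the study, limma called 0 of the 8 genes, where it called 1.46% of all genes, and at an unadjusted p under 0.05 it also called 0 of 8, against 7.75% of all genes. After adjustment over all genes 0 of the 8 passed, against 0% of all genes. Nor did any of the 8 separate the groups without overlap, as 5.02% of all genes did (1.42% higher and 3.60% lower with HDACI). The smallest exact permutation p among the 8 was 0.257, where 4 against 4 arrays allow 0.0286. Without vehicle replicates 1 and 2, and without these and HDACI replicate 2, the count called stayed at 0, and the median turned to 0.03 and 0.04. A p that misses the threshold does not show that these genes stayed the same. The pooled spread within groups was larger for Ngfr, Gfra1 and Ret than for most genes.

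The closest relatives of the 8 behaved likewise. Of the ligands, Ntf4, neurotrophin 4, had a log2 fold change of 0.02 (SE 0.05). The other ligands of the GDNF family were neurturin (Nrtn, 0.00), artemin (Artn, -0.03) and persephin (Pspn, -0.05). Of their coreceptors, Gfra2 read 0.02, Gfra3 0.00 and Gfra4 -0.07. Sort1, sortilin, which pairs with p75 to bind uncleaved neurotrophins, had 0.04 (SE 0.04). The unadjusted p of these 8 relatives in limma ran from 0.200 upward.

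**Figure D3:**
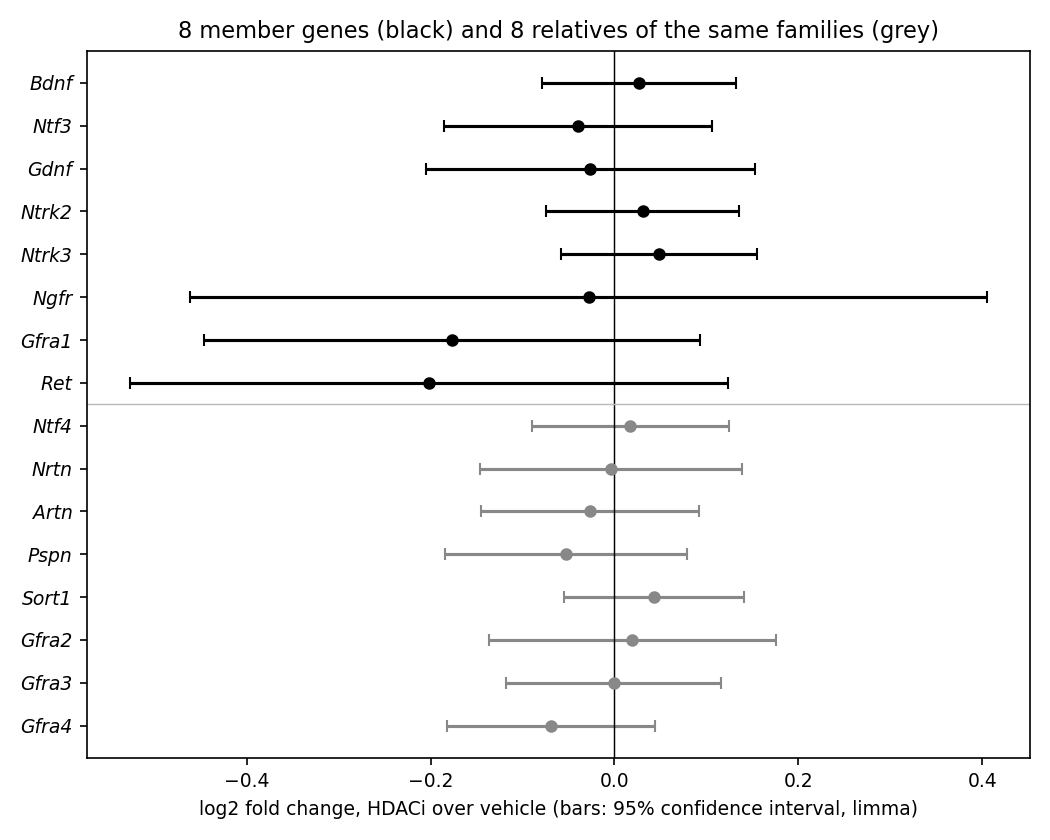
Log2 fold change, HDACI over vehicle, of the 8 genes (black) and 8 relatives (grey), with 95% CIs from limma as bars. Every interval includes 0, and those of Ngfr, Gfra1 and Ret are the widest.

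The wider pathway was described with 94 further genes in 6 lists, of which 78 were measured. By limma at an unadjusted p under 0.01, 1 gene was higher and 1 lower, against 0.607% and 0.855% of all genes, which is near the background. The median log2 fold change of the 78 was 0.02, with 49 above 0 and 29 below, where all genes had 6106 above and 8400 below. After adjustment 0 passed (smallest adjusted p = 0.610), and 7 of the 78 had an unadjusted p under 0.05, where 7.75% of all genes did. The groups did not overlap for 2 genes higher and 2 lower with HDACI, against 1.42% and 3.60% of all genes. Both counts are near the background.

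Among 12 other neurotrophic ligands, 0 passed at an unadjusted p under 0.01, and the median was 0.01. Midkine (Mdk), a heparin-binding growth factor, had the highest log2 fold change, 0.21 (SE 0.07, unadjusted p = 0.0156 from limma). It read 10.32, 10.52, 10.32 and 10.43 with HDACI and 10.27, 10.31, 10.07 and 10.08 with vehicle. The groups did not overlap, though HDACI replicate 1 and vehicle replicate 2 differed by less than 0.01. Its unadjusted p from limma passed under 0.01 with trend and robust settings (0.00973), after quantile normalization (0.00563) or median centring (0.00446) and without vehicle replicate 2 (0.00678). Without vehicle replicates 1 and 2 its log2 fold change was 0.32 (unadjusted p = 0.00201 from limma), and without HDACI replicate 2 as well 0.28 (0.00182). Manf, a secreted protein of the endoplasmic reticulum stress response, had the lowest, -0.16 (SE 0.05, unadjusted p = 0.0144 from limma), again without overlap. Without vehicle replicate 1 the unadjusted p of Manf was 0.00628. Gdf15, the stress-induced ligand that acts on RET through Gfral, had 0.08 (SE 0.04). Ciliary neurotrophic factor (Cntf), a product of Schwann cells and astrocytes named after its values were seen, had a log2 fold change of -0.14 (SE 0.33) and spanned 9.25 to 10.52. Its 3 highest arrays were HDACI replicate 2 (10.52) and vehicle replicates 2 (10.47) and 1 (9.97), the same as for Ngfr.

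Of 11 other receptors and coreceptors 0 passed, with a median of 0.02. Gfral had the lowest log2 fold change, -0.29 (SE 0.10, unadjusted p = 0.0219 from limma), with overlapping groups. Its unadjusted p from limma was 0.00813 after quantile normalization and 0.00687 without HDACI replicate 2 and vehicle replicates 1 and 2. Gfral is known from the hindbrain, and its log2 signals ran from 6.64 to 7.32. Lifr, the receptor for leukemia inhibitory factor, which also carries the signal of Cntf, read -0.19 (SE 0.10) and was highest in vehicle replicates 2 (10.70) and 1 (10.39). Without vehicle replicate 2 its log2 fold change was -0.08, and without both it was -0.03 (unadjusted p = 0.532 from limma). Its signalling partner Il6st (gp130) read 0.12 (SE 0.08).

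Of 6 measured partners of p75, 0 passed. Ripk2, a kinase recruited to the receptor, had 0.07 (SE 0.04), Nradd, a p75-like protein, -0.08 (0.06) and Bex3, which binds the receptor's intracellular part, -0.03 (0.05). Of 8 genes that process neurotrophin precursors, 0 passed either. Pcsk6, a proprotein convertase, had the highest log2 fold change, 0.21 (SE 0.08, unadjusted p = 0.0285 from limma), while Plat, tissue plasminogen activator, read 0.08 (0.06) and Plg, plasminogen, -0.09 (0.08). The log2 fold change of Plg without vehicle replicates 1 and 2 was -0.22 (unadjusted p = 0.00266 from limma), and without HDACI replicate 2 as well it was -0.22 (0.00560).

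Downstream of Trk and RET, 26 adaptors, kinases and other signalling genes had a median log2 fold change of 0.01. At an unadjusted p under 0.01, 1 of them was called lower, against 0.855% of all genes. This was Map2k1, which encodes MEK1, the kinase directly above ERK. It read 10.94, 10.72, 10.88 and 10.93 with HDACI and 11.07, 11.05, 11.05 and 11.08 with vehicle. All vehicle values lay above all HDACI values, at a log2 fold change of -0.19 (SE 0.05, unadjusted p = 0.00556 and adjusted p = 0.610 from limma). The unadjusted p exceeded 0.01 in 5 of the 8 fits that each left out 1 array, without HDACI replicate 3 (0.0124) or vehicle replicate 1 (0.0145), 2 (0.0105), 3 (0.0127) or 4 (0.0137), and it was 0.0280 without vehicle replicates 1 and 2, 0.0257 without these and HDACI replicate 2, and 0.0150 with each array centred on its median. Grb2, the adaptor that couples Trk receptors to RAS, read -0.14 (SE 0.07) and Sh2b1, an adaptor of Trk receptors, -0.06 (0.04), both the mean of 2 probe sets. The unadjusted p of Grb2 was 0.00934 without HDACI replicate 4.

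The last list held 15 genes that answer to neuronal activity and growth factor signalling or feed back on it. At an unadjusted p under 0.01, 1 of them was called higher, against 0.607% of all genes. The list's median log2 fold change of 0.07 was the highest of the 6 lists, as was its median within-group SD of 0.13. Junb, which forms AP-1 dimers with FOS proteins, read 8.95, 9.24, 8.93 and 9.04 with HDACI and 8.83, 8.79, 8.74 and 8.77 with vehicle. The groups did not overlap, at a log2 fold change of 0.26 (SE 0.07, unadjusted p = 0.00417 and adjusted p = 0.610 from limma). The unadjusted p of Junb was 0.0109 without HDACI replicate 4, 0.0131 without vehicle replicate 3, 0.0110 without vehicle replicate 4, 0.0140 without vehicle replicates 1 and 2 and 0.0131 without moderation of the variances. Egr1, an immediate early transcription factor, had 0.24 (SE 0.11, unadjusted p = 0.0451 from limma), and 0.14 without vehicle replicate 1 (unadjusted p = 0.0959 from limma), where it was lowest. Fos had 0.13 (SE 0.07).

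**Figure D4:**
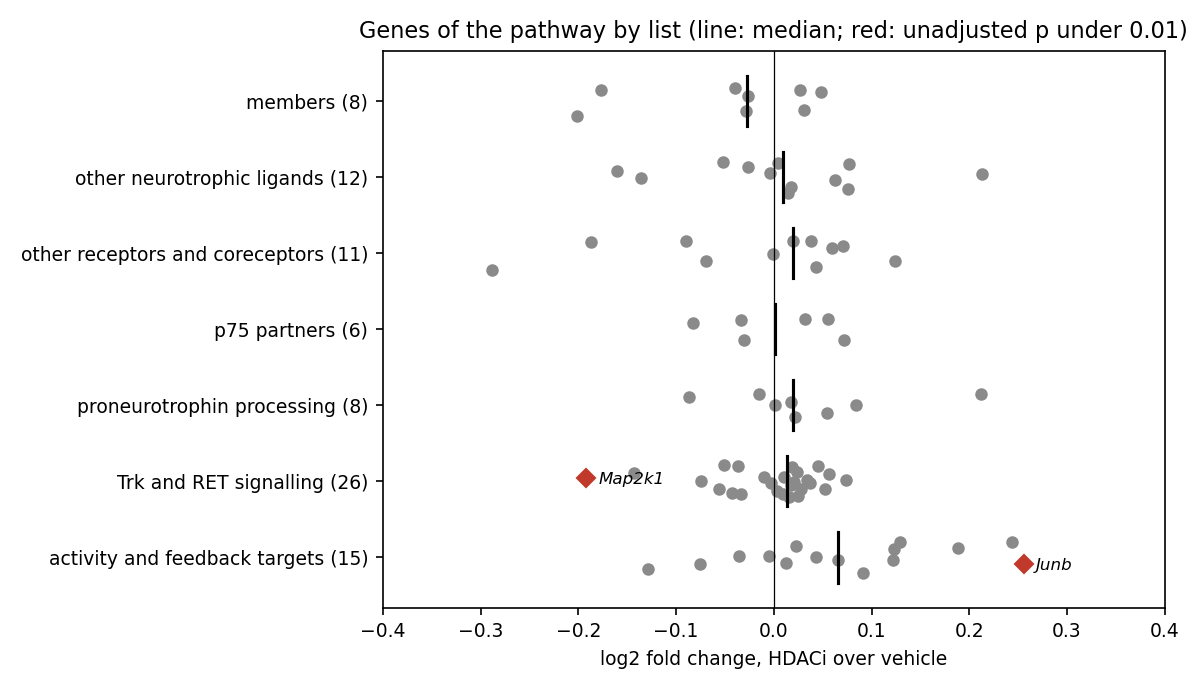
Log2 fold change, HDACI over vehicle, of each measured gene by list, with the number of genes in parentheses, the list median as a black line and genes at an unadjusted p under 0.01 as red diamonds. Map2k1 at -0.19 and Junb at 0.26 are the called genes, and the 8 neurotrophic factor and receptor genes (top row) hold none.

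The genes whose signal ran most like that of each of the 8 over the 8 arrays were found by Pearson correlation with the other 14505 genes, a description without a test. For Bdnf they were Apold1 (0.989) and Pold3 (0.982), for Ntf3 Hdgfl1 (0.957) and Or5al7 (0.954) and for Gdnf Nhlh2 (0.982) and Creb3l4 (0.981). For Ntrk2 they were Mfsd4a (0.976) and Neurod6 (0.974), and for Ntrk3 Cdk8 (0.914) and Papolb (0.911). For Ngfr they were Tead1 (0.996) and Sntb1 (0.988), for Gfra1 Or6k14b (0.980) and Cldn4 (0.975), and for Ret Slc36a1 (0.977) and Ascc1 (0.971). With so many genes and only 8 arrays such values are common: over all genes the median of the highest correlation was 0.972. The highest values of Ntf3 and Ntrk3 lay below that median and those of the other 6 above it.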

How the data were processed

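RNA of ipsilateral dorsal cord from 8 nerve-injured rats was measured on 1 array each. The authors preprocessed the scans with the Bioconductor package oligo and RMA, which corrects background, equalizes the arrays by quantiles and summarizes each probe set. Log2 signals were deposited, and the RMA version is not given in the sources used here. Groups and replicate numbers came from the sample labels. RMA signals are relative, which hides a shift common to nearly all genes.

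The deposited table held 29214 probe sets, and GEO's annotation of the array gave 15310 of them 1 symbol and 323 more than 1, with 13581 absent from it. Symbols were updated by Entrez number through RefSeq (GRCr8), which held 15279 of the 15310. Probe sets were averaged per gene, and HDACI was compared with vehicle over 14506 genes with limma 3.58.1 (lmFit, then eBayes; R 4.3.3), using two-sided p values adjusted by the Benjamini-Hochberg method. Residual degrees of freedom were 6, with a prior worth 3.36. Exact permutation tests over 70 assignments used scipy 1.17.1. For arrays, their number limits the precision. The fit was tested on simulated data of 14506 genes.

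The 8 genes, the pathway and marker lists and the tests were chosen with earlier results of these data known. Named are the 8 genes, fixed relatives, from each list every gene at an unadjusted p under 0.01 and the 3 with the smallest p, and the 2 genes most alike per member. Alternatives were other eBayes settings, no moderation, a filter at the 25th percentile, further quantile normalization, median centring, the brightest probe set per gene, array weights, a replicate block and leaving out arrays. Each of the 8 genes has 1 probe set, so a fit per probe set uses the same values.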

Additional observations from a re-analysis of the deposited data

Results flagged for a closer look

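Values far from the other arrays of their group were looked for in 88 groups of 4, covering the 8 genes, the pathway genes named and the marker means, and 6 were found, where chance alone flags about 1 group in 20. Among the 8 genes, Gdnf was highest in HDACI replicate 3, at 7.40 against 7.28 to 7.29 on the other HDACI arrays. In its family, Nrtn was lowest in HDACI replicate 1 (7.58 against 7.72 to 7.73), and Gfra4 was lowest in HDACI replicate 2 (7.60 against 7.66 to 7.68) and in vehicle replicate 2 (7.59 against 7.75 to 7.77). Plat was highest in HDACI replicate 2, at 10.98 against 10.74 to 10.76. Egr1 was lowest in vehicle replicate 1, at 9.69 against 10.08 to 10.14.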

How the results depend on the processing

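None of the 8 genes was called at an unadjusted p under 0.01 by limma in any alternative, and the smallest unadjusted p from limma was 0.0383, for Gfra1 without vehicle replicate 3. Of 142 values for the 8 genes under the alternatives, 130 kept their direction and 12 turned. Some of the 130 could not turn, so this count does not measure how stable the directions are. Other eBayes settings, no moderation, the filter, the brightest probe set and the replicate block leave the log2 fold changes of these genes as they were. Leaving out each array in turn, the log2 fold change of Ngfr ran from -0.177 to 0.0965, that of Ntf3 from -0.0853 to 0.00282 and that of Gdnf from -0.0772 to 0.0502. Among the relatives the ranges were -0.0555 to 0.00435 for Artn, -0.0322 to 0.0739 for Gfra2, -0.0259 to 0.0319 for Gfra3, -0.0544 to 0.0333 for Nrtn and -0.0144 to 0.0427 for Ntf4. Pathway genes called ranged from 0 to 2 higher and from 0 to 2 lower. Gfra3 turned to 0.00809 after further quantile normalization, 0.000398 with each array centred on its median and 0.00436 with array weights. Pathway genes called higher numbered 2 with trend and robust settings, 0 without moderation, 2 after quantile normalization (with 2 lower) and 2 after centring (with 0 lower). The cause of these shifts was not tested. Without vehicle replicates 1 and 2, a choice made after seeing the markers, the values were -0.00497 for Bdnf, 0.269 for Ngfr, 0.0262 for Gfra1, 0.0668 for Ret, -0.0128 for Ntf4, -0.00121 for Gfra2 and 0.0383 for Gfra3, with 2 pathway genes higher. Without these and HDACI replicate 2 they were 0.12 for Ngfr, 0.0883 for Ret, -0.0120 for Ntf4, 0.0219 for Gfra3 and -0.00717 for Plat, with 3 pathway genes higher and 2 lower. Whether the replicate numbers pair the samples is not known. Deviations of same-numbered arrays correlated across genes at -0.27, 0.36, 0.04 and 0.06, and only HDACI replicate 2 was most like the vehicle array of its own number. With so few arrays this cannot exclude a pairing. With the replicate number as a block no call on the 8 genes or the lists changed (Gfra1 -0.18, unadjusted p = 0.0558 from limma; 187 genes called against 212 without the block). A dim signal limits what can be seen for Bdnf, Ntf3 and Gdnf, and also for Ntf4, Gfra3 and Plg.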
